A study of Mus musculus with 2 samples.

Results

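The genes described here encode the subunits of the mitochondrial respiratory chain and ATP synthase, together with a few assembly factors. They were chosen by symbol: names that start with Nduf, Uqcr, Atp5, Cox4i, Cox5, Cox6, Cox7, Cox8 or mt-, and Sdha, Sdhb, Sdhc, Sdhd and Cyc1. The rule found 106 genes of the 19070 in the files, of which 13 lie on the mitochondrial chromosome (the mt- genes) and 93 in the nucleus. The nuclear members comprise 37 of complex I, 4 of complex II, 9 of complex III, 20 of complex IV, 15 of complex V (ATP synthase) and 8 complex I assembly factors with the Ndufaf prefix. Ndufa4 and Ndufa4l2 were counted with complex IV, where Ndufa4 is a subunit. The 13 mt- genes divide into 7 of complex I, 1 of complex III, 3 of complex IV and 2 of complex V.

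The tumours were Lewis lung carcinoma (LLC), an established line of mouse lung tumour cells, carried under the skin of mice, and single-cell RNA libraries were made from the tumour tissue. The control library came from tumours given an IgG2a isotype control antibody (the series' design text calls these cells untreated), and the other from tumours given anti-PD-1 antibody and collected 7 days after treatment. The labels give no time for the control, no number of mice and no strain, and each tumour holds LLC cells and host cells together. With 1 library per group there is no replicate and no test: every interval below is a 95% interval for counting error alone, and the antibody cannot be told apart from the animal, the preparation or the time of collection.

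The respiratory chain passes electrons from NADH (complex I) and succinate (complex II) through complexes III and IV to oxygen, and the proton gradient this builds drives ATP synthase. Complexes I, III, IV and V are mosaics: a core of subunits is encoded by mitochondrial DNA and transcribed inside the organelle, and the rest are nuclear, translated in the cytosol and imported. Complex II is nuclear throughout. The 2 strands of mitochondrial DNA are transcribed as long precursors, so the genes of a strand share a promoter, whereas each nuclear subunit has its own. Under low oxygen, cells are known to lower respiration and exchange some subunits.

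The mt- genes occupy chromosome M of GRCm38, the build that matches the mm10 named in the submitters' processing notes. In the GENCODE M21 annotation 12 of the 13 lie on the plus strand, and mt-Nd6 (chrM:13552-14070) alone is on the minus strand. The starts of mt-Nd6 and of 3 plus-strand genes from complexes I, III and IV are shown because mt-Nd6 stood apart from the other 12 in most comparisons below, and its strand is visible in its letters (first 60 bases of each transcript, 5′ to 3′).
mt-Nd6: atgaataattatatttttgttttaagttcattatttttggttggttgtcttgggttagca
mt-Nd1: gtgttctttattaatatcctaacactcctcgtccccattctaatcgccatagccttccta
mt-Cytb: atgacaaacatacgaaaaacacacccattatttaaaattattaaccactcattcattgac
mt-Co2: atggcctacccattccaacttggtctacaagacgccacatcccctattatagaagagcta
Over its whole length mt-Nd6 is 43.7% T, 28.1% G and 5.97% C. The other 12 hold 27.4% to 32.8% T, 5.88% to 16.1% G and 22.1% to 29.97% C. The gene overlaps the end of mt-Nd5 on the opposite strand by 14 bases, printed in capitals in the last 40 bases of each.
mt-Nd5: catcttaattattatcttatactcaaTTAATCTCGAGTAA
mt-Nd6: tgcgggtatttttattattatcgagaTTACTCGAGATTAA
The neighbours mt-Atp8 and mt-Atp6 share 43 bases of the plus strand and mt-Nd4l and mt-Nd4 share 7, so the division of counts within these pairs is uncertain. Each gene was still counted in full as a member.

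Each value is a number of unique molecular identifiers (UMIs), from 10x libraries whose labels name a Flex kit, in which probes bind each transcript, and also a 3' protocol. With probes the level of a gene depends on its probes, so a gene was compared between cells or libraries, and not with another gene. After removal of barcodes with fewer than 300 genes, 8397 control and 9423 anti-PD-1 barcodes remained. Cells were put in classes by the UMIs of marker genes, none of which is a member. LLC-like cells (Hmga2, Igf2bp1 to Igf2bp3, Wnt7b, Lin28b) numbered 3997 in the control library and 5430 in the anti-PD-1 library, macrophage-like cells 924 and 1071, monocyte-like 239 and 254, fibroblast-like 103 and 200, T cell-like 158 and 63, and neutrophil-like 101 and 83. A further 1863 and 1191 barcodes had no class, and 861 and 1007 with markers of more than 1 class were set aside. Between 84318 UMIs (T cell-like, anti-PD-1) and 94810824 UMIs (LLC-like, anti-PD-1) stood behind a class. Depth differed: the median LLC-like cell had 16892 UMIs in the control library and 13628 in the anti-PD-1 library. The 2 barcode lists shared 107 barcodes. All markers in the files were detected in their class in both libraries, and no marker of another class was among the 10 leading genes of a class. The leading genes of fibroblast-like cells differed, with Pi16 and Has1 in the control library and Igfbp5, Lum and Ptn in the anti-PD-1 library. The libraries also differed in UMIs of other tissues. In LLC-like cells erythroid markers (6 genes, all detected in both) summed to 628 CPM in the control library (a gene's UMIs over all UMIs of the class and library, scaled to a common total) and 57.3 in the anti-PD-1 library, and skeletal muscle markers to 1403 UMIs in the control against 75 (5 genes, 1 of them at 0 in the anti-PD-1 library).

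LLC-like cells had the highest share of respiratory chain UMIs of the 6 classes. In the control library the 13 mt- genes made up 0.639% of LLC-like UMIs (interval 0.637 to 0.640), and the 93 nuclear members 1.02% (1.02 to 1.02). In the anti-PD-1 library the mt- share was 0.761% (0.760 to 0.763) and the nuclear share 0.858% (0.856 to 0.860). The mt- genes were thus higher and the nuclear genes lower in the anti-PD-1 library, with log2 ratios of anti-PD-1 over control of 0.25 (0.25 to 0.26) and -0.25 (-0.25 to -0.24). The number of mt- UMIs per nuclear UMI was 0.628 in the control library and 0.888 in the anti-PD-1 library.

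The order of the classes by mt- share was the same in both libraries. Fibroblast-like cells followed LLC-like cells with 0.481% in the control library and 0.436% in the anti-PD-1 library, then T cell-like (0.341% and 0.384%), macrophage-like (0.333% and 0.322%), neutrophil-like (0.257% and 0.198%) and monocyte-like cells (0.255% and 0.189%). Neutrophil-like and monocyte-like cells overlapped in both libraries, and T cell-like and macrophage-like cells in the control library. For the nuclear members, LLC-like cells were again highest and monocyte-like cells lowest (0.580% and 0.482%), while neutrophil-like cells held 0.747% and 0.727%, close to fibroblast-like cells with 0.787% and 0.688%. Neutrophil-like cells therefore combined a nuclear share near that of fibroblast-like cells with an mt- share near that of monocyte-like cells, at 0.344 and 0.272 mt- UMIs per nuclear UMI. These cells were shallow, with medians of 693 and 766 UMIs, and 36 of 101 and 41 of 83 of them had no mt- UMI. They also held LLC marker UMIs at 295 and 326 CPM, against 1244 and 1385 in LLC-like cells. In the other host classes LLC markers were at 250 and 263 CPM (fibroblast-like), 220 and 174 (macrophage-like), 192 and 142 (T cell-like) and 147 and 154 (monocyte-like). The part of LLC RNA in the shares of host classes was not tested.

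**Figure D1:**
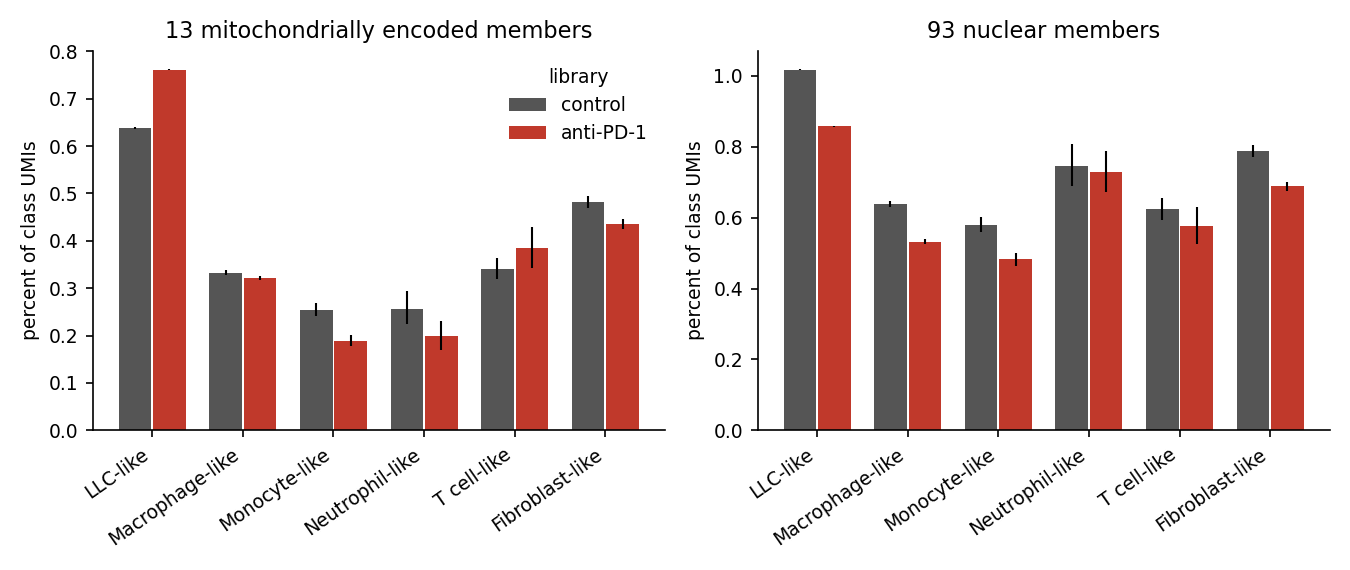
Percent of a class's UMIs (y axis) from the 13 mt- genes (left) and the 93 nuclear members (right) in 6 marker-defined classes, with 1 bar per library and 95% counting intervals. LLC-like bars are the tallest in both panels, and between the libraries the mt- bar of LLC-like cells goes from 0.639% to 0.761% while the nuclear bar goes from 1.02% to 0.858%.

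Set against LLC-like cells of the same library, 77 of the 80 nuclear members with at least 50 macrophage-like UMIs in each library were lower in macrophage-like cells in both, with medians of -0.65 (control) and -0.64 (anti-PD-1) on the log2 scale. Of all 8846 genes with as many UMIs 62.0% were lower in both, with medians of -0.33 and -0.44. All 13 mt- genes were lower too, with medians of -1.05 and -1.22. The widest gap was that of mt-Cytb, the cytochrome b of complex III, at -1.54 and -1.63. The narrowest was that of mt-Nd6 at -0.22 and -0.61. Among nuclear members Ndufaf3, a complex I assembly factor, was higher in macrophage-like cells in both libraries (0.34 and 0.31), and Ndufaf2, another assembly factor, had the widest gap at -1.33 and -1.21. In fibroblast-like cells 51 of 65 nuclear members and all 13 mt- genes were lower than in LLC-like cells in both libraries, against 51.8% of 5375 genes. The subunit Cox5a had the widest gap of the nuclear members there (-0.82 and -0.80).

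The mt- genes of LLC-like cells did not move as a block. In LLC-like cells 11 of the 13 were higher in the anti-PD-1 library, and 7 of these were at least 25% higher, against 12.7% of the 11959 genes with at least 100 UMIs. mt-Nd1, a core membrane subunit of complex I, was at 438 CPM in the control library and 682 in the anti-PD-1 library (log2 ratio 0.64, interval 0.62 to 0.66). mt-Nd2, the next of the mt- genes along the chromosome, was at 178 and 265 CPM (0.58). The ATP synthase subunits mt-Atp6, part of the proton channel, and mt-Atp8 were at 548 and 768 CPM (0.49) and 699 and 934 CPM (0.42). For all 13 mt- genes the CPM intervals of the libraries did not overlap.

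The catalytic core of complex IV differed less evenly. mt-Co1, which carries the oxygen-reducing centre, was at 329 CPM in the control library and 427 in the anti-PD-1 library (0.37), and mt-Co3 at 602 and 771 CPM (0.36). mt-Co2, which takes electrons from cytochrome c and was the most counted member, was at 1668 and 1826 CPM (0.13). The complex I genes mt-Nd3, mt-Nd4, mt-Nd5 and mt-Nd4l had log2 ratios of 0.44, 0.31, 0.19 and 0.11. Cytochrome b, mt-Cytb, was lower at 635 and 594 CPM (-0.10, interval -0.11 to -0.08).

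mt-Nd6, a membrane subunit of complex I, went the other way. It was at 269 CPM in the control library (24707 UMIs) and 169 CPM in the anti-PD-1 library (15992 UMIs) of LLC-like cells, a log2 ratio of -0.67 (-0.70 to -0.64). This was the lowest ratio of any mt- gene, and 17.8% of all measured genes were at least 20% lower (the same fold as 25% higher). It was also lower in macrophage-like cells (231 and 111 CPM, -1.06), fibroblast-like cells (256 and 117 CPM, -1.13), monocyte-like cells (153 and 91.4 CPM, -0.74) and T cell-like cells (64 and 5 UMIs, -1.996, interval -3.67 to -0.70). In neutrophil-like cells the levels of 389 and 291 CPM had overlapping intervals (-0.42, -1.23 to 0.38). mt-Nd6 was singled out after its values were seen.

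mt-Nd6 moved with erythroid marker UMIs across control LLC-like cells. Among control cells of 15000 to 30000 UMIs, those with at least 500 CPM of erythroid markers (566 cells) had 366 CPM of mt-Nd6, and those with less than 200 CPM (206 cells) had 193 CPM, a log2 ratio of 0.92 (0.82 to 1.03). All 13 mt- genes were higher in the cells with more erythroid UMIs, and the other 12 ranged from 0.36 (mt-Atp8) to 0.64 (mt-Co2). The nuclear members had a median of -0.20, and 5 of 81 were above 0. All genes were not counted by direction in this comparison, so a shift shared by other genes cannot be told apart. In the anti-PD-1 library, where few cells held many erythroid UMIs, cells at or above 100 CPM differed from those below 50 CPM by 0.06 for mt-Nd6 (-0.03 to 0.16). Set side by side within the same erythroid range, mt-Nd6 in LLC-like cells was at 169 CPM in both libraries below 50 CPM (99 control and 3416 anti-PD-1 cells), at 110 and 151 CPM between 50 and 100, at 179 and 174 CPM between 100 and 200, and at 238 and 217 CPM between 200 and 500. In these 4 ranges its log2 ratio was 0.00, 0.47, -0.04 and -0.13, against -0.67 over all cells. Outside these ranges lay 1141 control cells of 500 to 1000 CPM and 561 of at least 1000 CPM, with mt-Nd6 at 306 and 430 CPM. The anti-PD-1 library had only 26 and 18 such cells. In macrophage-like cells the mt-Nd6 ratio was -0.79 below 50 CPM and -0.39 between 200 and 500 CPM, the 2 ranges that held at least 50 cells of each library. Depth also entered: among cells of 15000 to 20000 UMIs in the range from 100 to 200 CPM, mt-Nd6 was at 231 CPM in 80 control cells and 162 CPM in 154 anti-PD-1 cells, and among cells of at least 30000 UMIs at 135 CPM in both. From 50 to 100 CPM the control and anti-PD-1 levels were 157 (16 cells) and 181 CPM at the first depth, and 68.6 and 125 CPM at the second. From 200 to 500 CPM they were 272 and 188 CPM, and 194 and 183 CPM. The direction thus varied between ranges. Each range takes a different tail of the 2 libraries' cells, and the part of blood RNA in the mt-Nd6 difference was not tested.

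**Figure D2:**
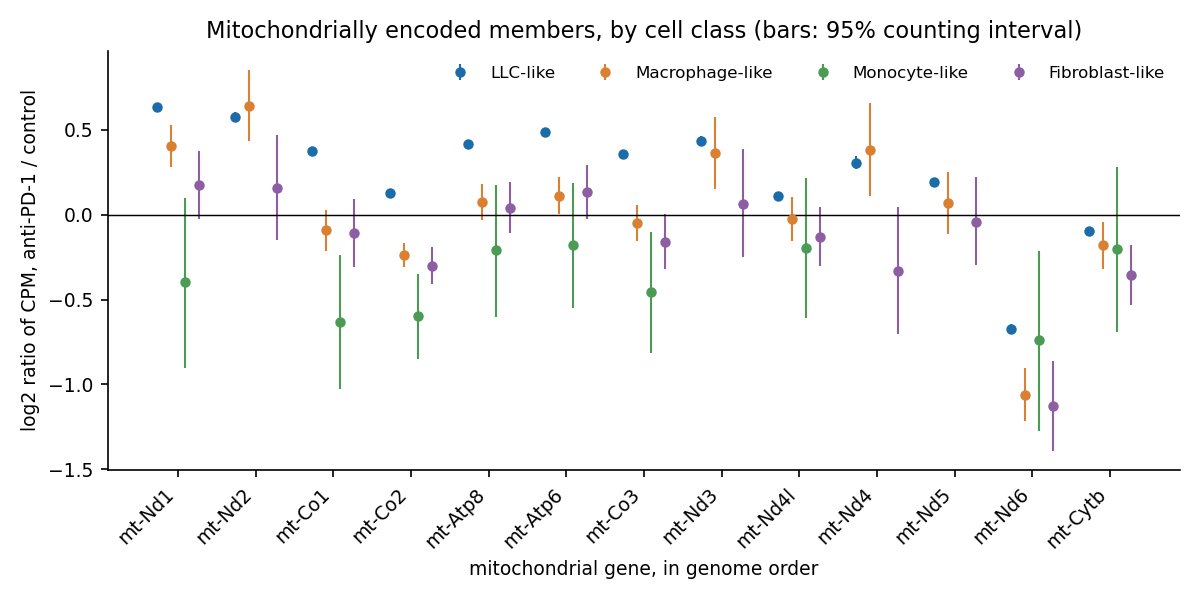
Log2 ratio of CPM, anti-PD-1 over control (y axis), for each mt- gene in genome order (x axis) in 4 classes; points are single library pairs and bars are 95% counting intervals, and genes with under 100 UMIs in a class are left out. mt-Nd6 lies between -0.67 and -1.13 in the 4 classes, and mt-Nd1 lies at 0.64 in LLC-like cells.

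The direction of the mt- genes differed between classes, which was not tested. In macrophage-like cells 7 of the 13 were higher in the anti-PD-1 library, and 4 of these at least 25% higher, against 8.9% of 9111 genes. Of those 9111 genes 64.8% were lower. mt-Nd2 was at 74.1 and 116 CPM (0.64) and mt-Nd1 at 218 and 289 CPM (0.41), the largest 2 ratios among members with at least 200 UMIs in that class. mt-Co2, in contrast, was at 861 and 730 CPM (-0.24, interval -0.31 to -0.17). The macrophage-like sum had a log2 ratio of -0.05 (-0.08 to -0.02), and without mt-Nd6 it was 0.00 (-0.03 to 0.04). In monocyte-like cells all 9 measured mt- genes were lower, mt-Co1 at 257 and 166 CPM (-0.63) and mt-Co2 at 619 and 409 CPM (-0.60), and the sum was at -0.43 (-0.55 to -0.31). Of all 2645 genes measured in monocyte-like cells 49.1% were lower. With each cell thinned to 1000 UMIs the sum was at -0.24. Erythroid markers in this class were at 496 CPM in the control library and 67.6 in the anti-PD-1 library, and their part in the difference was not tested. mt-Atp6 was at 246 and 218 CPM in monocyte-like cells (-0.18). The complex I subunit Ndufa13, at 176 and 208 CPM (0.24), had the highest ratio of the members with at least 200 UMIs in that class. In fibroblast-like cells 8 of 13 were lower and none was at least 25% higher, against 17.5% of 6404 genes, with a sum at -0.14. In T cell-like cells the 5 measured mt- genes were higher, while 50.8% of the 581 genes measured there were lower. The sum of the 13 mt- genes was 0.17, with an interval that spans 0 (-0.01 to 0.36). Without mt-Nd6 the sum was 0.25 (0.06 to 0.44).

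With anti-PD-1 the nuclear members were lower in each class where more than 10 were measured. In LLC-like cells 80 of 87 measured members had a log2 ratio below 0, 74 of them with the whole interval below 0. The median was -0.26, against -0.01 for all 11959 measured genes, of which 51.4% were lower. At least 20% lower were 30 of 87 (34.5%, against 17.8% of all genes), and at least 25% higher were 2, Ndufa4 and Ndufa4l2. In macrophage-like cells 74 of 81 were lower with a median of -0.26. Of all 9111 genes measured there 64.8% were lower, and their median was itself -0.11. In that class 34 of 81 members were at least 20% lower (42.0%, against 23.2%). In fibroblast-like cells 56 of 69 were lower with a median of -0.20, and 22 were at least 20% lower (31.9%, against 14.9%). In monocyte-like cells 14 of the 17 measured members were lower, with a median of -0.34, against 49.1% of 2645 genes lower and a median of 0.01. No nuclear member had 100 UMIs in T cell-like or neutrophil-like cells, whose summed ratios of -0.11 and -0.04 had intervals that span 0. Length was taken as the median over a gene's annotated transcripts, which need not be the length of the transcript counted (Sdha 521 bases, Atp5g1 2675.5). By this measure the 93 nuclear members had a median of 608 bases. Other genes of at most 700 bases by this measure had a median of -0.06 in LLC-like cells and -0.15 in macrophage-like cells. Nuclear members in the same range had -0.27 and -0.30. The length ranges were chosen after the values were seen.

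By complex, the summed nuclear ratio in LLC-like cells was -0.26 for complex I, -0.15 for complex II, -0.28 for complex III, -0.22 for complex IV, -0.25 for ATP synthase and -0.36 for the assembly factors. The matching mt- sums were 0.27, -0.10, 0.22 and 0.45 for complexes I, III, IV and V. The mt- sum of complex V consists of the overlapping genes mt-Atp8 and mt-Atp6. Per nuclear UMI of the same complex there were 0.696 mt- UMIs in the control library and 1.13 in the anti-PD-1 library for complex V, 0.470 and 0.678 for complex I, 1.40 and 1.90 for complex IV, and 0.515 and 0.583 for complex III.

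Complex I takes electrons from NADH at Ndufv1 and hands them along iron-sulphur clusters, several of them in Ndufs1. Ndufs1 was at 89.9 CPM in the control library and 76.1 in the anti-PD-1 library (-0.24), and Ndufv1 at 170 and 163 CPM (-0.06, interval -0.09 to -0.03). The lowest ratio was that of the accessory subunit Ndufa2, at 163 and 117 CPM (-0.48), and it was also lower in macrophage-like cells (-0.57) and monocyte-like cells (-0.76). The highest was that of Ndufa9, a subunit at the joint of the 2 arms, at 15.7 and 18.5 CPM (0.24, 0.13 to 0.34). Ndufab1, the mitochondrial acyl carrier protein, was at 58.9 and 45.9 CPM (-0.36) and had the lowest ratio of the nuclear members with at least 200 UMIs in macrophage-like cells (-0.74). Of the 37 complex I members 35 were lower in LLC-like cells.

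Of the 8 assembly factors all were lower in LLC-like cells, and 4 by at least 20%. Ndufaf4, which acts early in complex I assembly, had the lowest ratio at 74.4 CPM in the control library and 48.0 in the anti-PD-1 library (-0.63, -0.69 to -0.58). Ndufaf7, a methyltransferase that acts on a complex I subunit, had the highest at 20.5 and 19.5 CPM, with an interval that spans 0 (-0.08, -0.17 to 0.02). The position of Ndufaf4 is chr4:24898083-24905001 on the plus strand.

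Complex II oxidises succinate at the flavoprotein Sdha and passes electrons through Sdhb to the membrane anchors Sdhc and Sdhd. Sdha was slightly higher in the anti-PD-1 library, at 361 and 378 CPM (0.07, 0.05 to 0.09), while Sdhb was at 209 and 184 CPM (-0.18) and Sdhc at 179 and 131 CPM (-0.46). The subunits of complex II thus differed among themselves by more than their counting intervals. In macrophage-like cells Sdhb was at 159 and 130 CPM (-0.29), and the intervals of Sdha and Sdhc spanned 0.

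All 9 nuclear members of complex III were lower in LLC-like cells, each with the interval below 0. Uqcrh, the hinge protein, had the lowest ratio of all measured nuclear members at 5.70 and 3.12 CPM (524 and 296 UMIs, -0.87, -1.08 to -0.66), and lies at chr4:116066965-116075071. Uqcr11 had the highest ratio of the complex, at 95.1 and 84.0 CPM (-0.18). The Rieske iron-sulphur protein Uqcrfs1 was at 190 and 154 CPM (-0.30) and cytochrome c1, Cyc1, at 202 and 171 CPM (-0.24).

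Among nuclear members, the range of ratios was widest in complex IV. Cox5b, a subunit on the matrix side, was at 240 CPM in the control library and 147 in the anti-PD-1 library (-0.71, -0.74 to -0.68), and was lower in macrophage-like cells (141 and 89.4 CPM, -0.66) and monocyte-like cells (153 and 87.7 CPM, -0.80). In fibroblast-like cells its interval spanned 0 (-0.17, -0.47 to 0.15). Cox4i1, the common form of the subunit that regulates the enzyme, was at 252 CPM in both (0.00, -0.02 to 0.03), and its intervals also spanned 0 in macrophage-like cells (-0.01) and monocyte-like cells (0.01). Ndufa4 was higher at 67.5 and 84.6 CPM (0.33, 0.28 to 0.37), and lies at chr6:11900292-11907497 on the minus strand. Its paralogue Ndufa4l2, known to be induced by hypoxia, was near the lower limit at 1.21 and 1.53 CPM (0.34, -0.03 to 0.71). Cox6a1 was slightly higher at 151 and 159 CPM (0.07). The subunits Cox7a2l, Cox7a2, Cox7b, Cox6b1 and Cox8a lay between -0.28 and -0.23, while Cox5a was at -0.47, Cox7c at -0.19 and Cox6c at -0.04.

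The tissue-restricted isoforms of complex IV were close to absent in LLC-like cells. The heart and muscle form Cox6a2 had 20 UMIs in the control library and 6 in the anti-PD-1 library, Cox8b 10 and 2, the testis form Cox6b2 51 and 15, and the lung form Cox4i2 50 and 20. These 4 differed in the same direction as the skeletal muscle markers, at 1403 and 75 UMIs, and the part of muscle RNA in them was not tested. Cox7a1, another heart and muscle form, was at 1.54 and 1.35 CPM (-0.19, -0.55 to 0.16), and Cox8c and Cox7b2 had 3 and 1, and 2 and 0 UMIs, for which no ratio is given.

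All 15 nuclear members of ATP synthase were lower in LLC-like cells. Atp5e had the lowest ratio at 130 and 93.7 CPM (-0.47) and Atp5a1, the alpha subunit of the catalytic head, the highest at 69.8 and 67.4 CPM (-0.05, -0.10 to 0.00). The catalytic beta subunit Atp5b was at 443 and 394 CPM (-0.17). The genes for the membrane ring differed, with Atp5g1 at 73.0 and 56.6 CPM (-0.37) and Atp5g3 at 181 and 156 CPM (-0.22).

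**Figure D3:**
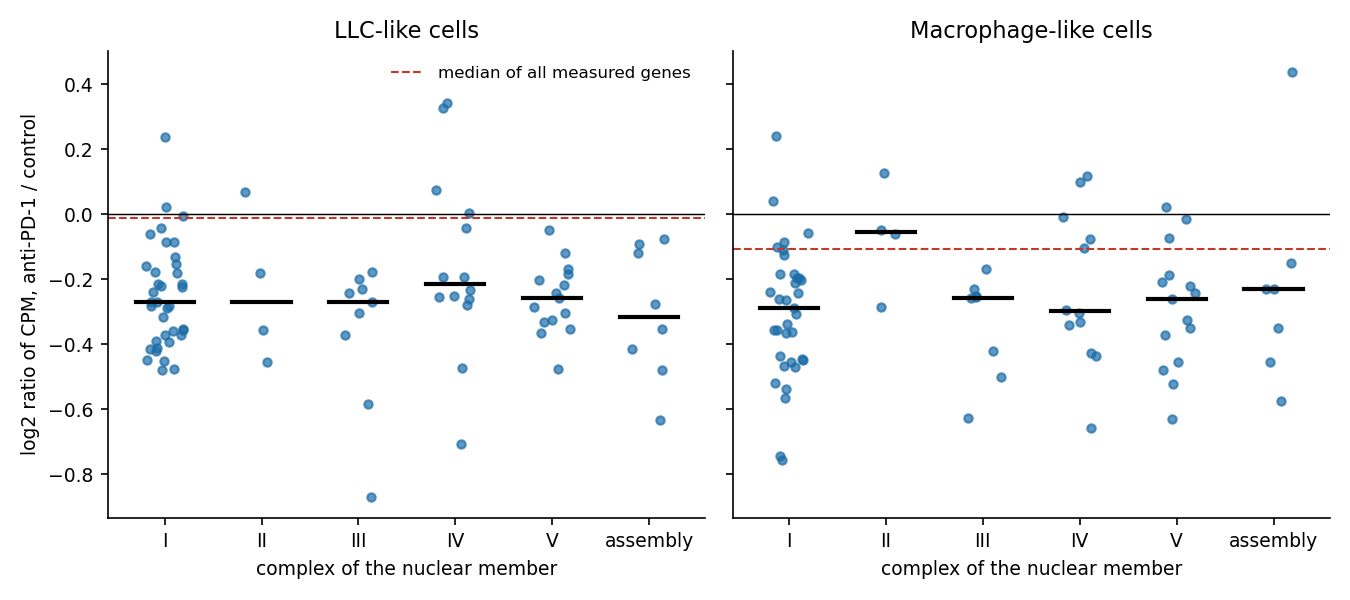
Log2 ratio of CPM, anti-PD-1 over control (y axis), of each nuclear member with at least 100 UMIs, by complex (x axis), in LLC-like and macrophage-like cells; each point is a gene, the thick bar is the median of its complex and the dashed line the median of all measured genes (-0.01 and -0.11). Most points lie below both lines, with Uqcrh at -0.87 and Ndufa4 at 0.33 in LLC-like cells.

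Cell depth moved with both sums in LLC-like cells. In the control library the mt- share went from 1.07% in cells under 5000 UMIs to 0.533% in cells of at least 30000, and in the anti-PD-1 library from 1.24% to 0.532%. The nuclear share was higher in deeper cells from 5000 UMIs upward, from 0.811% and 0.633% in cells of 5000 to 10000 UMIs to 1.09% and 0.976% at 30000 or more. Below 5000 UMIs it was 1.03% in the control library and 0.583% in the anti-PD-1 library. Compared within 6 depth ranges, the nuclear sum was lower in the anti-PD-1 library in each, by log2 ratios from -0.82 (under 5000 UMIs) to -0.16 (30000 and over). The mt- sum had ratios of 0.21, 0.38, 0.19, 0.22 and 0.05 in the ranges from the shallowest upward, and 0.00 (-0.01 to 0.01) in the 852 control and 626 anti-PD-1 cells of at least 30000 UMIs. In those deep cells 8 of 13 mt- genes were still higher and 2 at least 25% higher, and 72 of 86 nuclear members lower, 15 of them by at least 20%. Of all 11256 genes measured in those cells 5537 were lower and 5719 higher, and 10.8% were at least 25% higher and 14% at least 20% lower. The shares of members past these folds lay near those of all genes. Nuclear members were still lower more often than all genes, with a median of -0.15 against 0.01. Of the 13 mt- genes, mt-Atp6, mt-Atp8, mt-Co1, mt-Co3, mt-Nd1, mt-Nd2, mt-Nd3 and mt-Nd4 were higher in every range, and mt-Nd6 was lower in every range. Of 55 nuclear members measured in every range, 44 were lower in all 6. Such counts over every range were not made for all genes. Cox5b was lower in each, from -1.61 in the shallowest cells to -0.59 in the deepest, Ndufaf4 likewise (-0.94 to -0.56), and Ndufa4 was higher in the 5 ranges where it had 100 UMIs (0.29 to 0.49). The ranges were chosen after the values were seen, and the part of depth in the mt- difference was not tested further.

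Within the 4 erythroid ranges that held at least 50 cells of each library, the nuclear sum of LLC-like cells was lower in the anti-PD-1 library by -0.50, -0.64, -0.49 and -0.22, and the mt- sum was higher by 0.64, 1.05, 0.59 and 0.39. These ranges leave out 1141 control and 26 anti-PD-1 cells of 500 to 1000 CPM, and 561 and 18 cells of at least 1000 CPM. They therefore do not cover the same cells as the ratios over all LLC-like cells. Between 74 of 85 and 83 of 84 nuclear members were lower, against 45.3% to 48.9% of all genes measured in the same ranges. In macrophage-like cells the mt- sum was higher in the 2 ranges that could be compared (0.41 and 0.37), whereas over all macrophage-like cells it was at -0.05. LLC-like cells without any skeletal muscle marker UMI gave 0.25 for the mt- sum and -0.25 for the nuclear sum.

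**Figure D4:**
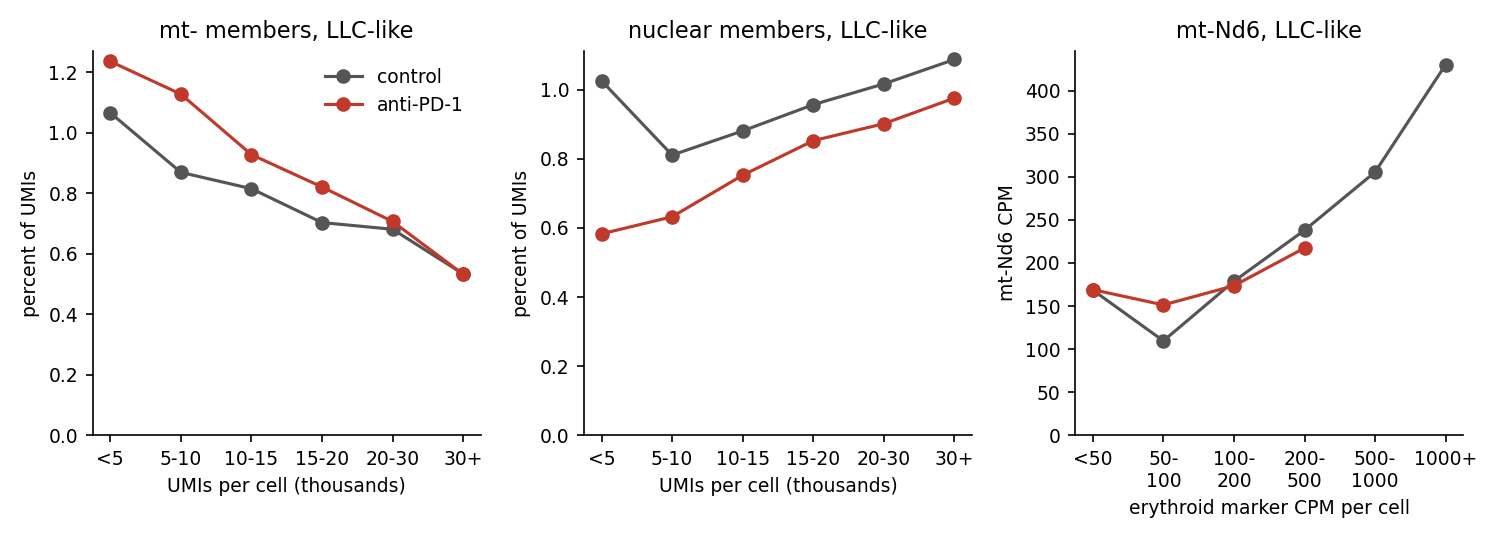
LLC-like cells: percent of UMIs from mt- genes (left) and nuclear members (middle) by UMIs per cell, and mt-Nd6 CPM by erythroid marker CPM per cell (right), with a line per library; ranges with under 50 cells are left out on the right. The mt- lines meet at 0.533% and 0.532% in the deepest cells, the nuclear lines stay apart, and the mt-Nd6 levels of the 2 libraries are 169 CPM in both below 50 CPM of erythroid markers, and 110 and 151 CPM between 50 and 100.

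LLC-like cells were also divided by their share of 12 hypoxia marker UMIs (among them Ankrd37, Egln3, Vegfa and Car9), after each cell was thinned to 5000 UMIs, so that 204 control and 352 anti-PD-1 cells were left out as too shallow. The ranges are cuts on a continuous score: between 290 and 1119 cells of each range and library lay within 1 UMI of a cut. The control library held 44.8% of its cells in the high range and the anti-PD-1 library 30.1%. Across the ranges the nuclear share went from 1.12% (low) through 1.04% to 0.934% (high) in the control library and from 0.925% through 0.859% to 0.775% in the anti-PD-1 library. High over low, the nuclear log2 ratio was -0.26 in the control library and -0.25 in the anti-PD-1 library, and the mt- ratio 0.03 and 0.10. The median gene was at 0.02 and 0.00. Of the 84 nuclear members with at least 200 UMIs in each library, 80 were lower in the high range in both libraries, and 2 were higher in both. Each of these 2 had an interval that spans 0 in 1 library. The same counts were not made for all genes.

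By complex, the high over low ratio in the control and anti-PD-1 library was -0.32 and -0.31 for nuclear ATP synthase genes, -0.27 and -0.26 for complex IV, -0.26 and -0.24 for complex III, -0.26 and -0.23 for complex II, -0.25 and -0.25 for complex I, and -0.08 and -0.10 for the assembly factors. The assembly factors therefore differed least. The lowest members were Ndufs6, an accessory subunit of complex I (47.9 and 37.3 CPM, low and high, in the control library, 44.3 and 30.4 in the anti-PD-1 library, ratios -0.36 and -0.54), Atp5g1 (86.8 and 63.1 CPM, then 63.5 and 47.2 CPM, -0.46 and -0.43) and Ndufc1 of complex I (-0.42 and -0.46). The highest were mt-Nd6 (232 and 303 CPM, then 140 and 205 CPM, 0.38 and 0.55), Ndufaf4 (70.4 and 81.9 CPM, 0.22, then 47.7 and 49.6 CPM, 0.05) and mt-Co1 (0.13 and 0.13). High-range cells were shallower, with medians of 16446 and 13206 UMIs against 19644 and 15587 in the low range. Within 5 depth ranges the nuclear ratio was still below 0 in each, from -0.10 to -0.28 in the control library and from -0.08 to -0.29 in the anti-PD-1 library, and the mt- ratio took both signs. The mt-Nd6 ratio lay between -0.02 and 0.50 in the control library and between 0.34 and 0.57 in the anti-PD-1 library. Within the low, middle and high range the anti-PD-1 over control ratio was -0.28, -0.27 and -0.27 for the nuclear sum, and 0.21, 0.26 and 0.28 for the mt- sum.

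**Figure D5:**
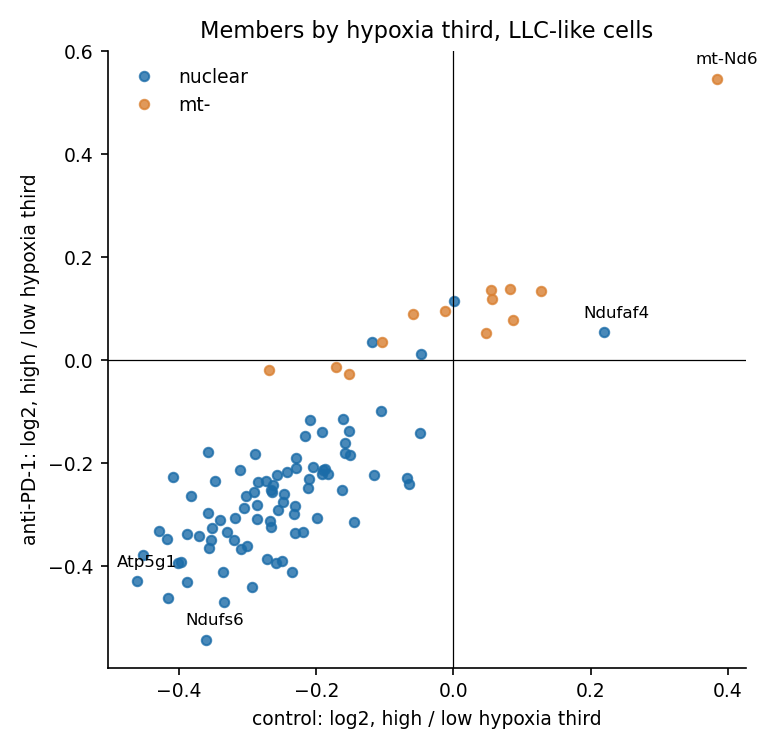
Log2 ratio of the high over the low hypoxia range of LLC-like cells, control library (x axis) against anti-PD-1 library (y axis), with a point per member that had at least 200 UMIs in each library. Most nuclear members lie at the lower left, and mt-Nd6 lies apart at 0.38 and 0.55.

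Other genes of mitochondrial respiration were taken from lists. Of 41 measured assembly factors outside the symbol rule, 29 had a lower level in LLC-like cells under anti-PD-1 and 9 at least 20% lower, with a median of -0.09. Of all measured LLC-like genes 51.4% were lower and 17.8% at least 20% lower. Coa5, a complex IV assembly factor, was lowest at 90.2 and 55.2 CPM (-0.71), and it was at -0.80 in macrophage-like cells. Of 15 TCA cycle genes, the source of NADH and succinate, 11 were lower and 3 by at least 20%, namely Dlat (90.3 and 67.7 CPM) and Pdha1 (132 and 101 CPM) of the pyruvate dehydrogenase complex and fumarase, Fh1 (81.4 and 61.4 CPM), while none was 25% higher. The share of 3 in 15 was close to the 17.8% of all LLC-like genes that were at least 20% lower. Of 18 measured genes that maintain or express the mitochondrial genome, 11 were lower and 1 by at least 20%, the RNA-stabilising Slirp (131 and 103 CPM, -0.34). Their median was -0.01, equal to that of all genes. Tfam, which packages mitochondrial DNA and starts its transcription, was at 61.3 and 50.4 CPM (-0.28) and the polymerase Polrmt at 27.3 and 30.3 CPM (0.15). Of 12 genes for coenzyme Q and cytochrome c, 6 were lower, with a median of -0.05. In macrophage-like cells the medians of the 4 lists were -0.24, -0.15, -0.15 and -0.02, beside -0.11 for all genes. Mitochondrial ribosomal proteins had no gene with their symbols in the files and were not analysed here. Coa5, Dlat, Pdha1, Fh1, Slirp, Tfam and Polrmt, and the members Cox5a, Cox6c, Cox7c, Ndufaf2, Ndufaf3 and Sdhd, were named after their values were seen.

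Promoters of the nuclear members were read for short motifs because so many members moved together. RefSeq (GRCm38.p6) gave a promoter of 300 bases, from 250 before to 50 after the start, for 75 of the 93, and the entry listed earliest was used where a gene had several. On either strand, CCGGAAG, a core bound by ETS factors such as GABPA, was in 17 of 75 (22.7%, against 9.12% of 27025 promoters), AAGATGGC (YY1) in 10 (13.3%, against 2.88%), the palindrome known for NRF1 in 6 (8%, against 0.977%) and ACGTG, the core of hypoxia response elements, in 18 (24.0%, against 19.7%). A match is a description of letters and not of binding. Measured members with and without each motif had similar LLC-like ratios: medians of -0.28 and -0.27 for CCGGAAG, -0.25 and -0.27 for AAGATGGC, -0.20 and -0.27 for the NRF1 palindrome, and -0.26 and -0.27 for ACGTG. The 120 bases before the start are printed for the members with the lowest LLC-like ratio that hold a motif there outside the annotated gene, with the motif in capitals: Sdhd (chr9:50603850-50603969, minus strand, CCGGAAG in reverse), Ndufaf4 (chr4:24897963-24898082, plus strand, NRF1 palindrome) and Cox5a (chr9:57521112-57521231, plus strand, ACGTG).
Sdhd: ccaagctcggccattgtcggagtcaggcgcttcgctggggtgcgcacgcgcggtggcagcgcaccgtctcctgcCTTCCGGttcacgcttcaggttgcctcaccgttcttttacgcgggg
Ndufaf4: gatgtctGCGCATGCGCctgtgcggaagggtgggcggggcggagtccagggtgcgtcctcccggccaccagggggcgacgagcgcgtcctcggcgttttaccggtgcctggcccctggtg
Cox5a: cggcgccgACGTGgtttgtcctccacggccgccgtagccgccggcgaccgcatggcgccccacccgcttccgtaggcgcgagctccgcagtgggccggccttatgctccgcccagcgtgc
In LLC-like cells Sdhd was at 134 CPM in the control library and 105 in the anti-PD-1 library (-0.36), and Cox5a at 188 and 135 CPM (-0.47), beside -0.63 for Ndufaf4. The motifs and the 3 promoters were chosen after the values were seen.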

How the data were processed

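The deposited matrices hold UMI counts per gene and barcode, as filtered by the authors. The submitters' processing notes name Cell Ranger 7.0.1 and the mm10 build, while the matrix header names version 9.0.1. The labels' protocols name both a Flex kit and a 3' protocol. Gene filters and the strand of counting are not given in the sources used here. Barcodes with at least 300 genes were kept, with no upper limit on mt- UMIs. A class needed at least 2 markers and 3 marker UMIs above a minimum CPM (500 for LLC-like, 1600 to 3200 for host classes), a 2-fold lead over other immune classes, and no second class; 1 marker was absent from the files. Gate minima were set after marker counts, but not member values, were seen, in the third version tried. Doublets were removed only as barcodes of mixed class; no doublet caller was run, and a cell with few UMIs of another class stays. Counts were summed per class and library and given as CPM with exact Poisson intervals, shares with Clopper-Pearson intervals, and log2 ratios with exact conditional binomial intervals (95%; counting error only, scipy 1.17.1). A measured gene had at least 100 UMIs over both libraries. Python 3.11.15 code was tested on simulated data. For the hypoxia ranges, a shallower thinning was tried before that to 5000 UMIs, with only the marker distribution seen. Members, lists and the named-gene rule were chosen with earlier results of these data known. The rule named every mt- gene, the highest and lowest ratio per complex (at least 200 UMIs), isoforms, catalytic subunits, the 2 highest and 2 lowest members in classes of at least 200 cells, and the 3 highest and 3 lowest by hypoxia; other names are marked. Atp5mc2 and Atp5if1 were not among the members found. Of the classes, 6 held at least 50 cells in each library and were compared. Alternatives covered denominator, centring, cell filters, gate, cell weights, thinning, depth, erythroid and muscle UMIs.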

Additional observations from a re-analysis of the deposited data

Results flagged for a closer look

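The summed mt- genes were higher in the anti-PD-1 library in LLC-like cells (0.25) and lower in macrophage-like (-0.05), monocyte-like (-0.43), neutrophil-like (-0.38) and fibroblast-like cells (-0.14), and these differences between classes were not tested. The macrophage-like direction turned in some settings: its sum was 0.00 without mt-Nd6, 0.059 when centred on the median gene, and 0.34 in cells under 100 CPM of erythroid markers. mt-Co2 alone among the named members had intervals on opposite sides of 0 in LLC-like (0.13) and macrophage-like cells (-0.24), also not tested. Barcodes of no class, which enter no comparison above, had an mt- share of 0.650% in the control library and 0.835% in the anti-PD-1 library, a log2 ratio of 0.36, and a nuclear share of 0.986% and 0.815%.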

How the results depend on the processing

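No paired analysis was possible because each group has 1 library. Values are log2 ratios of anti-PD-1 over control unless stated. In LLC-like cells the mt- sum (0.25) was 0.26 when centred on the median gene or with 2 times the marker minimum, 0.28 as the mean of the cells' own shares or without mt-Nd6, 0.30 thinned to 1000 UMIs, 0.18 as an equal-weight mean over depth ranges, 0.95 in cells under 100 CPM of erythroid markers and 0.00 (-0.0023) in cells of at least 30000 UMIs. The nuclear sum (-0.25) was -0.24 centred, -0.31 as the mean of the cells' own shares and thinned, -0.32 as the mean over depth ranges, -0.27 as the mean over hypoxia ranges, -0.58 under the erythroid limit and -0.16 in the deepest cells. The count of 30 nuclear members lower was 73 under the erythroid limit, 15 in the deepest cells and 3 at 1.5-fold, and 28 to 45 under the other settings.

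In macrophage-like cells the mt- sum (-0.05) was 0.059 centred, -0.0050 with at least 1000 genes per cell, -0.086 with 2 times the marker minimum, -0.20 as the mean of the cells' own shares and 0.34 under the erythroid limit, so its direction depends on these settings. The nuclear sum (-0.26) was -0.15, -0.19, -0.34 and -0.19 when centred, with the stricter markers, as the mean of shares and under the erythroid limit. The monocyte-like mt- sum was -0.24 thinned. With cells cut in a lower and an upper hypoxia range, high over low was 0.054 (control) and 0.086 (anti-PD-1) for mt- and -0.18 and -0.19 for nuclear members, and averaged over depth ranges -0.061 and 0.024, and -0.20 and -0.18.

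The ratio of mt-Nd6 in LLC-like cells turned to 0.39 under the erythroid limit, which kept few control cells (99 below 50 CPM and 119 from 50 to 100). In macrophage-like cells Atp5g1 turned to 0.086 and Cox7b to 0.30 when thinned, and Cox7a2l to 0.028 under the erythroid limit. The cause was not tested. Of 811 values for single genes and small classes (93 results), 609 moved by less than the counting interval, 198 moved by more and 4 are the reversals above, while 51 took the other sign. The erythroid, muscle, depth and mt-Nd6 settings were chosen after the data were seen. Host classes other than macrophage-like cells had too few UMIs for most single members.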
